A study of Lathyrus oleraceus with 4 samples.

Results

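The unigenes described here were chosen for a higher level in opposite stages of seed development in a vegetable pea and a grain pea, and 126 of them show it once 0 and near-0 counts are set to a floor. They were chosen from a table of 77269 unigenes, sequences assembled from the RNA-Seq reads without a genome. A unigene with at least 50 reads in any library was taken when the lower RPKM of one pair of libraries was at least 4 times the higher RPKM of the other pair. RPKM scales the reads of a unigene by its length in kb and by the total of its library. One pair was Zhewan 1 at 25 days after pollination (DAP) with Zhongwan 6 at 10 DAP, and the other was Zhewan 1 at 10 DAP with Zhongwan 6 at 25 DAP. Of the 35529 unigenes with the minimum of 50 reads, 590 met this rule. In 314 of them (0.884% of the 35529) the higher level was in the first pair, and these are called the Zhewan-late set. In the other 276 (0.777%) it was in the second pair, and these are called the Zhongwan-late set.

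Zhewan 1 is a vegetable pea and Zhongwan 6 a grain pea. Both were grown in the field, and seeds pooled from many plants were taken at 25 and 10 DAP, the harvest stage of the vegetable pea and the stage of cell division. Each cultivar and stage has 1 library here, so that no difference has a replicate check. The study describes biological replicates for each, and how they entered the library is not given in the sources used here. The counted reads of the 4 libraries ranged between 50086351 and 70912839. Whole seeds hold embryo, endosperm and seed coat, and fewer cells of a type cannot be told apart from less RNA per cell. Annotation words for tissues were searched only in the part of the study's annotation against Medicago truncatula that could be read here. That part names few of the unigenes, so the sums that follow do not describe whole libraries. Words for seed storage and late embryogenesis proteins picked 5 unigenes there. Their summed RPKM lay between 54.1 and 125 in every library, and 0 unigenes there matched a flower word. The 5 unigenes with words for photosystems and light harvesting summed to an RPKM of 578 in Zhewan 1 at 25 DAP and 32.5 at 10 DAP, against 164 in Zhongwan 6 at 25 DAP and 26.6 at 10 DAP. The 1 unigene with a seed coat word had an RPKM of 2.31 in Zhewan 1 at 25 DAP and 1.89 at 10 DAP. In Zhongwan 6 it had 0.905 at 25 DAP and 5.17 at 10 DAP. This is the direction of the Zhewan-late set, but the Zhewan 1 values were close to each other and come from 1 unigene. None of these unigenes was a member, and the part of green tissue and seed coat in the results below was not tested.

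In a legume seed an early phase of cell division and morphogenesis is followed by seed filling, when the cotyledons enlarge and accumulate starch and storage protein. The cultivars differ in use, the vegetable pea being eaten as a green seed and the grain pea as a dry one. At the same fold and the floor described below, 126 unigenes had the opposite pattern, against 1526 that were higher and 1901 that were lower at 25 DAP in both cultivars. Another 22 were higher in Zhewan 1 than in Zhongwan 6 at both stages, and 22 were lower. The rule used the RPKM of all 4 libraries, so the ratios given below are descriptions of the chosen unigenes and carry no test.

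The rule took 2 kinds of unigene that must be kept apart. In 424 of the 590, reads were found in a single library, and both libraries of the lower pair as well as the other library of the higher pair were listed at 0. These met the rule because 4 times 0 is 0. They show a level in 1 library and no opposite change, and all 424 met the same rule for pairs made by stage and by cultivar. Reads in both libraries of the higher pair were found for 166 unigenes. To keep 0 and near-0 values from deciding the fold, fewer than 3 reads were counted as 3, the number that a count of 0 allows, equal to an RPKM between 0.0423 and 0.0599 for 1 kb of sequence. With this floor 126 unigenes kept a 4-fold gap, 59 in the Zhewan-late set (0.166% of the unigenes with the read minimum) and 67 in the Zhongwan-late set (0.189%). The label of opposite stage change holds for these 126, and from here on the Zhewan-late and Zhongwan-late unigenes are these 59 and 67 unless reads in a single library are named. Of the 126, 0 met the rule for stage or cultivar pairs. The remaining 40 failed the floor, 31 in the Zhewan-late set and 9 in the Zhongwan-late set, and 26 of them had 3 or fewer reads in the lower library of the higher pair.

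**Figure D1:**
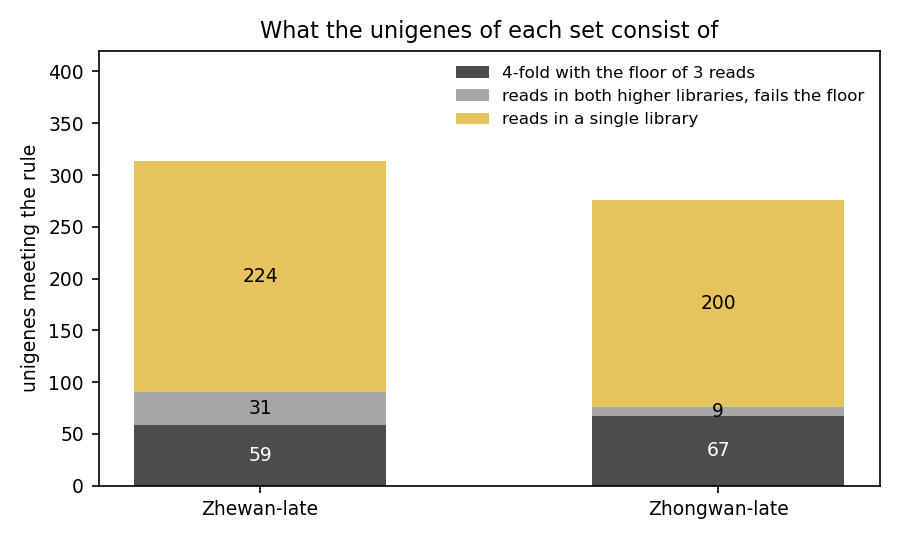
Number of unigenes (y axis) that met the rule in the Zhewan-late and the Zhongwan-late set, split by how the reads fall over the 4 libraries. Reads in a single library make up 224 of 314 and 200 of 276, and 59 and 67 kept a 4-fold gap with the floor of 3 reads.

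The library totals bear on these counts. Over the 35529 unigenes the log2 ratio of 25 DAP to 10 DAP had a median of 0.55 in Zhewan 1 and of -0.22 in Zhongwan 6, so that the whole distribution leans towards the Zhewan-late direction. At least 2-fold higher levels at 25 DAP were found for 36.5% of the unigenes in Zhewan 1, and at least 2-fold lower levels for 25.7% in Zhongwan 6, changes that each of the 59 Zhewan-late unigenes has by the rule. The changes of the 67 Zhongwan-late unigenes, at least 2-fold lower in Zhewan 1 and at least 2-fold higher in Zhongwan 6, were found for 17.3% and 16.7%. Both changes together were found for 2.96% in the Zhewan-late direction and for 1.38% in the Zhongwan-late direction. The same values read between cultivars give Zhewan 1 at least 2-fold above Zhongwan 6 in 20.5% of the unigenes at 25 DAP and at least 2-fold below it in 20.6% at 10 DAP, as in each of the 59. For the Zhongwan-late direction these shares were 9.98% at 25 DAP and 6.24% at 10 DAP. When each library was scaled by its median ratio, 22 of the 59 Zhewan-late unigenes kept the 4-fold gap. All 67 Zhongwan-late unigenes kept it and the set grew to 99. A 4-fold gap at the near end of the 95% exact (Clopper-Pearson) interval of every ratio of reads was found for 14 Zhewan-late and 40 Zhongwan-late unigenes. These intervals cover counting error only.

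**Figure D2:**
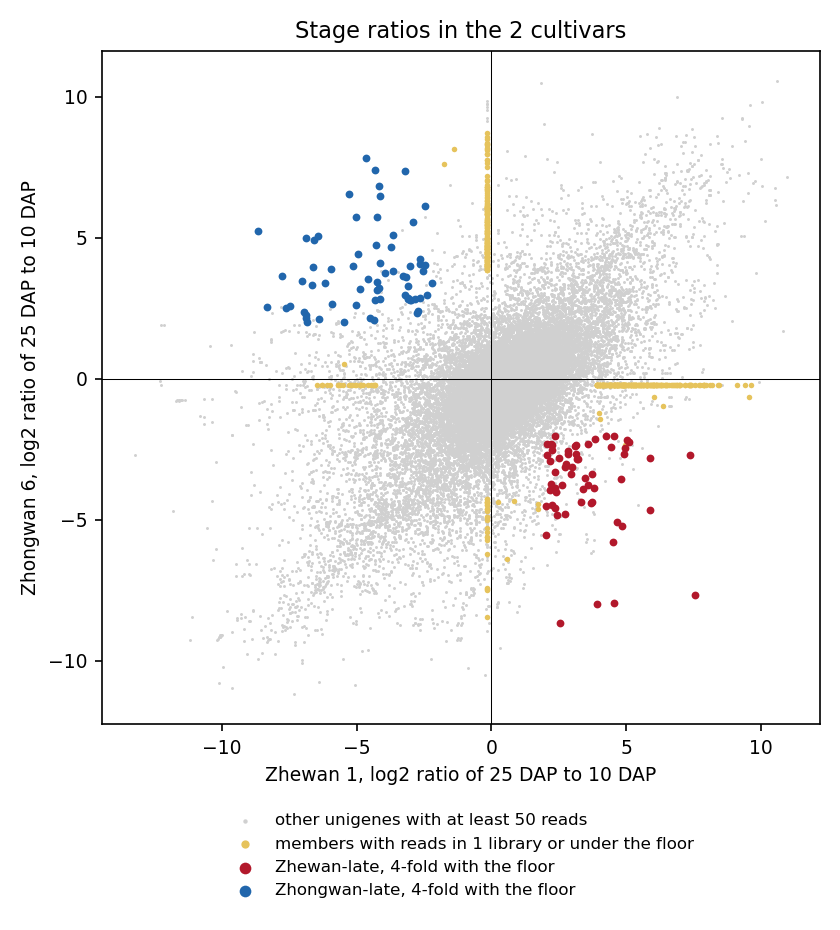
Log2 ratio of 25 DAP to 10 DAP in Zhewan 1 (x axis) against that in Zhongwan 6 (y axis), with fewer than 3 reads counted as 3, for each of the 35529 unigenes with at least 50 reads. The 59 Zhewan-late unigenes lie at the lower right and the 67 Zhongwan-late unigenes at the upper left, while the other members, with reads in a single library or short of the floor, lie mostly along the lines near 0.

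The 2 sets differed in level. The median RPKM of the Zhongwan-late set was 0.315 for Zhewan 1 at 25 DAP and 8.13 at 10 DAP, while for Zhongwan 6 it was 12.9 at 25 DAP and 0.890 at 10 DAP. An RPKM of 10 was reached by 39 of the 67 in the highest library. Among the 39 are 5 sequences of component comp40974_c0, 4 of comp36631_c1 and 3 of comp35491_c0, so this is not a count of separate genes. The median RPKM of the Zhewan-late set was 2.16 for Zhewan 1 at 25 DAP and 0.147 at 10 DAP, while for Zhongwan 6 it was 0.216 at 25 DAP and 2.31 at 10 DAP, and 10 of the 59 reached an RPKM of 10. Of all unigenes with the read minimum 29.3% reached it. The Zhongwan-late set held 0.473% of the Zhewan 1 library at 25 DAP and 4.43% at 10 DAP, and 6.77% of the Zhongwan 6 library at 25 DAP and 0.924% at 10 DAP. The Zhewan-late set held between 0.00272% and 0.0407% of each library. These are shares of counted reads, in which a read may be counted on several sequences. Component comp40974_c0, described below, took most of the Zhongwan-late reads. Without it the set held 0.00696% of the Zhewan 1 library at 25 DAP, less than the 0.0407% of the Zhewan-late set there. By the rule this library is low for the Zhongwan-late set and high for the Zhewan-late set. Elsewhere the Zhongwan-late set without it held more, 0.457% against 0.00341% in Zhewan 1 at 10 DAP. In Zhongwan 6 it was 0.537% against 0.00272% at 25 DAP and 0.0544% against 0.0362% at 10 DAP.

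**Figure D3:**
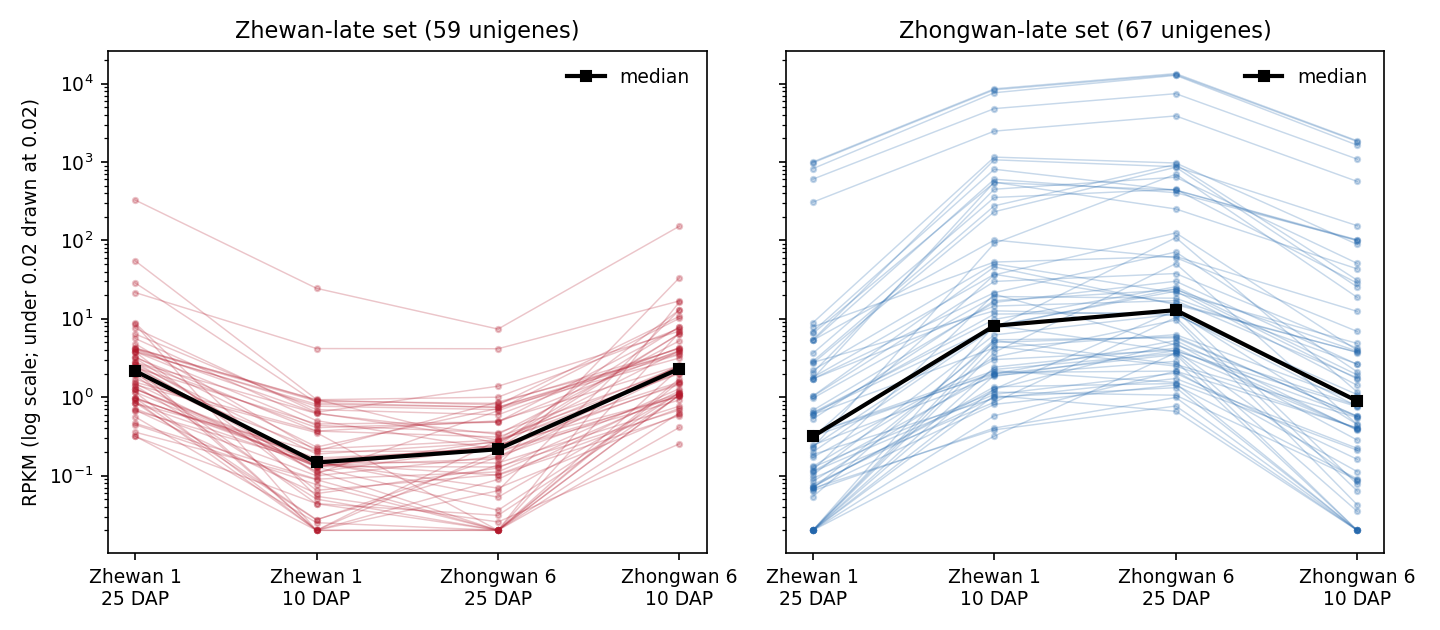
RPKM (log scale, values under 0.02 drawn at 0.02) of each unigene that kept a 4-fold gap with the floor, in the 4 libraries, with 1 line per unigene and the median in black. The Zhongwan-late set spans a wider range, up to an RPKM of 13391, and has its lowest median, 0.315, in Zhewan 1 at 25 DAP.

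The rule did not use the order of the libraries within a pair. In the Zhongwan-late set Zhewan 1 at 25 DAP lay below Zhongwan 6 at 10 DAP in 53 of 67 unigenes, above it in 12 and level with it in 2, with a median log2 ratio of -1.10 (0.12 over all unigenes with the read minimum). Within the higher pair Zhongwan 6 at 25 DAP lay above Zhewan 1 at 10 DAP in 48 of 67. Over all unigenes with the read minimum, Zhewan 1 at 25 DAP lay above Zhongwan 6 at 10 DAP in 53.8%. Zhongwan 6 at 25 DAP lay above Zhewan 1 at 10 DAP in 57.9% of them. The lower pair was thus mostly ordered with Zhewan 1 at 25 DAP as the lowest library. In the Zhewan-late set neither pair had such an order, since Zhewan 1 at 25 DAP was above Zhongwan 6 at 10 DAP in 26 of 59 and below it in 33, and the libraries of the lower pair were above and below each other in 29 unigenes each. Sequences of 1 component can stem from 1 gene, so these are not counts of separate genes.

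Only a small part of the unigenes could be given a name. The readable part of the study's annotation against Medicago truncatula covers identifiers between comp10000 and comp13541 in text order, and 8 of the 126 unigenes fall there, of which 6 are listed with a Medicago sequence. The named unigenes are described first. A Kunitz family trypsin and protease inhibitor (comp12822_c0_seq1, 851 bp, matched to Medtr6g059680.1) belonged to the Zhongwan-late set. Proteins of this family block serine proteases and are common in legume seeds. It had an RPKM of 0 in Zhewan 1 at 25 DAP and 1.27 at 10 DAP, and of 12.9 in Zhongwan 6 at 25 DAP and 0.0772 at 10 DAP, from 0, 54, 777 and 4 reads. Its reads were almost all in the grain pea at 25 DAP, 167-fold above 10 DAP (95% exact interval 64.9 to 613). In Zhewan 1 it was 20.1-fold lower at 25 DAP, taking the 0 as 3 reads, and the near end of the exact interval was 15.8-fold.

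The unigene named reticulon-like protein B13 (comp13530_c0_seq2, 904 bp, Medtr5g018250.1) was the most abundant of the named unigenes in the Zhongwan-late set. Reticulons shape the tubules of the endoplasmic reticulum. Its RPKM was 1.72 in Zhewan 1 at 25 DAP and 551 at 10 DAP, against 251 in Zhongwan 6 at 25 DAP and 43.2 at 10 DAP. In Zhewan 1 it was thus 320-fold lower at 25 DAP (interval 259 to 399), and in Zhongwan 6 it was 5.81-fold higher (5.57 to 6.07). Its rank by reads among all unigenes was 26374 in Zhewan 1 at 25 DAP and 159 at 10 DAP, against 294 in Zhongwan 6 at 25 DAP and 2699 at 10 DAP.

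A UDP-glycosyltransferase (comp13091_c0_seq1, 1635 bp, Medtr2g008220.1), of a superfamily that attaches sugars to small molecules, had the same pattern. Its RPKM was 0.526 in Zhewan 1 at 25 DAP and 17.0 at 10 DAP, against 23.4 in Zhongwan 6 at 25 DAP and 3.85 at 10 DAP. It was 32.3-fold lower at 25 DAP in Zhewan 1 (24.3 to 44.1) and 6.09-fold higher in Zhongwan 6 (5.47 to 6.79). The other 2 UDP-glycosyltransferases of the readable part were not members. Of these comp12886_c0_seq1 was higher at 25 DAP in both cultivars, with log2 ratios of 1.73 and 1.84, and comp12927_c0_seq1 with 0.84 and 2.28.

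A copper chaperone (comp12366_c0_seq1, 524 bp, Medtr7g013660.1), a carrier of copper ions inside the cell, had the lowest peak level of the named Zhongwan-late unigenes. It had 5 reads in Zhewan 1 at 25 DAP and 79 at 10 DAP, against 147 in Zhongwan 6 at 25 DAP and 18 at 10 DAP. The ratio was 17.6-fold lower at 25 DAP in Zhewan 1 (7.24 to 55.7) and 7.01-fold higher in Zhongwan 6 (4.28 to 12.2). At 10 DAP it was 5.33-fold higher in Zhewan 1 than in Zhongwan 6 (3.17 to 9.46), so that the near end of this interval was under 4-fold. The same ratio of the UDP-glycosyltransferase comp13091_c0_seq1 was 4.42 (3.94 to 4.96).

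The Zhewan-late set had 2 named unigenes, both at low levels. K+ transporter 1 (comp11237_c0_seq1, 2267 bp, Medtr3g107720.1), which carries potassium across membranes, had an RPKM of 0.838 in Zhewan 1 at 25 DAP and 0.203 at 10 DAP, and of 0.205 in Zhongwan 6 at 25 DAP and 1.03 at 10 DAP. It was 4.14-fold higher at 25 DAP in Zhewan 1 (2.62 to 6.80) and 5.01-fold lower in Zhongwan 6 (3.41 to 7.56), and it fell short of the 4-fold gap with median-ratio scaling. A second unigene with the same name (comp11116_c0_seq2) had 61 reads in Zhewan 1 at 25 DAP and 9 at 10 DAP, and 12 in each Zhongwan 6 library. A protein of unknown function with the domain DUF1677 (comp13127_c0_seq1, 767 bp, Medtr4g125010.1) had 119 reads in Zhewan 1 at 25 DAP and 5 at 10 DAP, against 7 in Zhongwan 6 at 25 DAP and 32 at 10 DAP. It was 21.4-fold higher at 25 DAP in Zhewan 1 (8.90 to 67.0) and 5.33-fold lower in Zhongwan 6 (2.31 to 14.3). The near end of the Zhongwan 6 interval was thus under 4-fold. The unigene fell just short of the 4-fold gap with median-ratio scaling and kept it with scaling by the trimmed mean of M-values (TMM). Each group of annotation words held 0 or 1 of the 126 unigenes, and at the shares of 0.166% and 0.189% over all unigenes nothing can be read from these counts.

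The remaining unigenes are given by their identifiers, since the sources used here pair them with no name. The reads of the Zhongwan-late set came mostly from a single component, a group of sequences assembled from overlapping reads. Component comp40974_c0 has 5 sequences of 375 to 1882 bp, and all 5 were members. Together they held 0.466% of the counted reads of Zhewan 1 at 25 DAP and 3.97% at 10 DAP. In Zhongwan 6 they held 6.23% at 25 DAP and 0.870% at 10 DAP. A read may be counted on several sequences, so these shares may hold some reads more than once. Its longest sequence, comp40974_c0_seq9, had an RPKM of 999 in Zhewan 1 at 25 DAP and 8557 at 10 DAP, and of 13391 in Zhongwan 6 at 25 DAP and 1860 at 10 DAP. Its rank by reads among all unigenes was 43 in Zhewan 1 at 25 DAP and 10 at 10 DAP, against 5 in Zhongwan 6 at 25 DAP and 29 at 10 DAP. The level at 25 DAP was 8.56-fold lower in Zhewan 1 (95% exact interval 8.51 to 8.62) and 7.20-fold higher in Zhongwan 6 (7.17 to 7.23). The log2 stage ratios of the 5 sequences ran from -3.22 to -2.99 in Zhewan 1 and from 2.77 to 2.96 in Zhongwan 6. The 5 sequences thus had nearly the same pattern, but they may share reads and are not 5 separate observations. Without this component the set held 0.457% of the Zhewan 1 library at 10 DAP, and 0.537% of the Zhongwan 6 library at 25 DAP and 0.0544% at 10 DAP.

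Component comp35491_c0 has 5 sequences, of which 3 were members. The member with the most reads, comp35491_c0_seq7 (740 bp), had an RPKM of 8.88 in Zhewan 1 at 25 DAP and 1152 at 10 DAP, and of 969 in Zhongwan 6 at 25 DAP and 88.7 at 10 DAP. It was 130-fold lower at 25 DAP in Zhewan 1 (117 to 144) and 10.9-fold higher in Zhongwan 6 (10.6 to 11.3). The other 2 sequences had the same direction but a smaller gap, and comp35491_c0_seq2 kept 5931 reads in Zhewan 1 at 25 DAP where the other 4 had 189 to 367. With all 5 summed the log2 ratios were -4.37 in Zhewan 1 and 2.41 in Zhongwan 6, and the 4-fold gap held.

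Component comp36631_c1 has 6 sequences, of which 4 were members. In comp36631_c1_seq2 (840 bp) the RPKM was 2.86 in Zhewan 1 at 25 DAP and 276 at 10 DAP, against 931 in Zhongwan 6 at 25 DAP and 31.0 at 10 DAP. The longest sequence, comp36631_c1_seq6 (881 bp), was no member, with 32 reads in Zhewan 1 at 25 DAP and 144944 at 10 DAP, and with 40051 in Zhongwan 6 at 25 DAP and 36463 at 10 DAP. It also had few reads in Zhewan 1 at 25 DAP but was nearly level between the stages in Zhongwan 6. The sum over the component had log2 ratios of -9.27 and 1.85, short of the 4-fold gap.

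**Figure D4:**
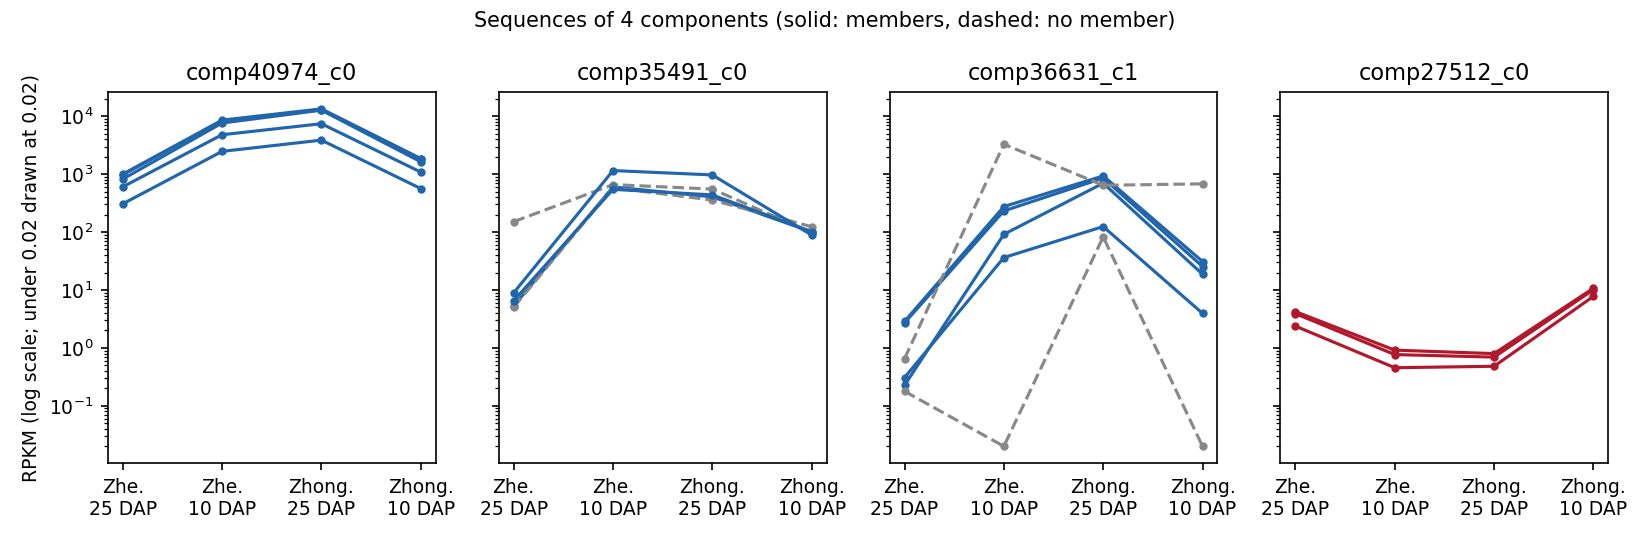
RPKM (log scale, values under 0.02 drawn at 0.02) of each sequence of 4 components in the 4 libraries, Zhewan 1 (Zhe.) and Zhongwan 6 (Zhong.), with solid lines for members and dashed lines for sequences that were no members. All 5 sequences of comp40974_c0 and all 3 of comp27512_c0 run in parallel, while 2 of 5 and 2 of 6 sequences of the other components were no members.

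Of the 30 Zhongwan-late unigenes that reached 10 RPKM in both libraries of the higher pair, comp18936_c0_seq1 (660 bp) had the widest gap. Its RPKM was 0.597 in Zhewan 1 at 25 DAP and 11.5 at 10 DAP, against 12.1 in Zhongwan 6 at 25 DAP and 0.448 at 10 DAP, so that both libraries of each pair were close to each other. It was 19.2-fold lower at 25 DAP in Zhewan 1 (12.5 to 31.0) and 26.9-fold higher in Zhongwan 6 (16.9 to 45.8). The next was comp38267_c2_seq2 (658 bp), with 3.62 RPKM in Zhewan 1 at 25 DAP and 352 RPKM at 10 DAP, against 447 RPKM in Zhongwan 6 at 25 DAP and 28.4 RPKM at 10 DAP. It was 97.2-fold lower at 25 DAP in Zhewan 1 (82.0 to 116) and 15.7-fold higher in Zhongwan 6 (14.8 to 16.7). Its lower pair was uneven, since Zhongwan 6 at 10 DAP held most of the reads of that pair.

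The same unevenness was seen in comp40960_c2_seq3 (322 bp), with 37 reads in Zhewan 1 at 25 DAP and 7236 at 10 DAP, against 14573 in Zhongwan 6 at 25 DAP and 995 at 10 DAP. In comp33569_c0_seq1 (2008 bp) the higher pair was uneven instead, where Zhewan 1 had 192 reads at 25 DAP and 2162 at 10 DAP, and Zhongwan 6 had 10101 at 25 DAP and 257 at 10 DAP. It was 12.5-fold lower at 25 DAP in Zhewan 1 (10.8 to 14.6) and 33.7-fold higher in Zhongwan 6 (29.8 to 38.3). In comp25845_c0_seq1 (867 bp) and comp41667_c0_seq1 (830 bp) the lower pairs were close, with an RPKM of 5.31 in Zhewan 1 at 25 DAP and 6.88 in Zhongwan 6 at 10 DAP for comp25845_c0_seq1, and of 1.71 in Zhewan 1 and 1.76 in Zhongwan 6 for comp41667_c0_seq1. Among less abundant unigenes, chosen after their values were seen, comp33214_c0_seq1 (2333 bp) had 17 reads in Zhewan 1 at 25 DAP and 379 at 10 DAP, against 1589 in Zhongwan 6 at 25 DAP and 6 at 10 DAP. In Zhongwan 6 it was 227-fold higher at 25 DAP (104 to 620). Chosen likewise, comp24940_c0_seq1 was among the most abundant outside comp40974_c0, with 5.39 RPKM in Zhewan 1 at 25 DAP and 1064 RPKM at 10 DAP, against 868 RPKM in Zhongwan 6 at 25 DAP and 154 RPKM at 10 DAP. It was 197-fold lower at 25 DAP in Zhewan 1 (167 to 235) and 5.65-fold higher in Zhongwan 6 (5.47 to 5.84), so that its change was far larger in the vegetable pea. The size of the log2 ratio was the larger one in Zhewan 1 in 42 of the 67 Zhongwan-late and in 22 of the 59 Zhewan-late unigenes, against 58.0% of all unigenes with the read minimum.

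In the Zhewan-late set only 2 unigenes had an RPKM of at least 10 in both libraries of the higher pair. The first, comp13590_c0_seq1 (537 bp), had an RPKM of 327 in Zhewan 1 at 25 DAP and 24.4 at 10 DAP, and of 7.38 in Zhongwan 6 at 25 DAP and 152 at 10 DAP. It was 13.4-fold higher at 25 DAP in Zhewan 1 (12.4 to 14.5) and 20.5-fold lower in Zhongwan 6 (18.2 to 23.2). Its level in each library of the higher pair was at least 6.2 times that in either library of the lower pair. The other, comp6354_c0_seq1 (657 bp), was lower, with 21.6 RPKM in Zhewan 1 at 25 DAP and 4.16 at 10 DAP, and 4.14 RPKM in Zhongwan 6 at 25 DAP and 16.9 at 10 DAP. Its gap of 4.05-fold was just past the threshold and did not hold with median-ratio scaling.

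Below that level, the Zhewan-late unigenes that reached 1 RPKM in both higher libraries were taken by the size of the gap after their values had been seen. The widest gap of the 126 unigenes was that of comp26025_c0_seq1 (1320 bp), with 630 reads in Zhewan 1 at 25 DAP and 0 at 10 DAP, against 6 in Zhongwan 6 at 25 DAP and 1041 at 10 DAP. It was 188-fold higher at 25 DAP in Zhewan 1, taking the 0 as 3 reads, and the near end of the exact interval was 153-fold. In Zhongwan 6 it was 202-fold lower (95% exact interval 92.6 to 552). Both libraries of the lower pair were therefore at or near 0. The unigene comp34551_c0_seq2 (619 bp) was listed at 0 in both libraries of the lower pair and had 84 reads in Zhewan 1 at 25 DAP and 87 in Zhongwan 6 at 10 DAP. Similar counts were found for comp34805_c0_seq1 (914 bp), where Zhewan 1 had 97 reads at 25 DAP and 2 at 10 DAP, and Zhongwan 6 had 0 at 25 DAP and 96 at 10 DAP.

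Other Zhewan-late unigenes were uneven within the higher pair. In comp37807_c0_seq2 (556 bp) the vegetable pea at 25 DAP was the highest, with 1706 reads there and 26 at 10 DAP, against 10 in Zhongwan 6 at 25 DAP and 218 at 10 DAP. It was 58.9-fold higher at 25 DAP in Zhewan 1 (40.0 to 90.4) and 25.4-fold lower in Zhongwan 6 (13.6 to 53.7). In comp6705_c0_seq1 (1456 bp) the grain pea at 10 DAP was the highest, where Zhewan 1 had 79 reads at 25 DAP and 2 at 10 DAP, and Zhongwan 6 had 14 at 25 DAP and 2958 at 10 DAP. It was 246-fold lower at 25 DAP in Zhongwan 6 (146 to 451). In Zhewan 1 it was 23.6-fold higher, taking the 2 reads as 3, and 35.4-fold higher without the floor (9.49 to 298). Closer levels within the higher pair were found in comp31006_c0_seq1, chosen after its values were seen, with 7.58 RPKM in Zhewan 1 at 25 DAP and 0.639 RPKM at 10 DAP, against 1.38 RPKM in Zhongwan 6 at 25 DAP and 6.95 RPKM at 10 DAP. It was 11.9-fold higher at 25 DAP in Zhewan 1 (9.07 to 15.8) and 5.04-fold lower in Zhongwan 6 (4.28 to 5.97). In comp24557_c0_seq1 (2074 bp) Zhongwan 6 at 10 DAP was the highest library with 7.91 RPKM, and Zhewan 1 at 25 DAP had 4.09 RPKM. Its level at 25 DAP was 6.54-fold higher in Zhewan 1 (5.04 to 8.62) and 27.7-fold lower in Zhongwan 6 (20.4 to 38.7). All 3 sequences of comp27512_c0 were members, with log2 stage ratios of 2.21 to 2.39 in Zhewan 1 and of -4.01 to -3.75 in Zhongwan 6. The 2 sets held no component in common among the 126 unigenes. They lay in 57 and 54 of the 21544 components that hold a unigene with the read minimum, so nothing can be read from this.

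The gap had no natural break at the threshold. The Zhewan-late unigenes just inside it had gaps of 4.04, 4.05 and 4.05-fold (comp47693_c0_seq1, comp18621_c0_seq1 and comp6354_c0_seq1), and those just outside it had 3.99, 3.98 and 3.97-fold (comp27013_c0_seq1, comp37146_c0_seq1 and comp34538_c0_seq1). In the Zhongwan-late direction the gaps were 4.03, 4.03 and 4.04-fold inside (comp30051_c1_seq1, comp35491_c0_seq5 and comp22437_c0_seq1) and 3.96, 3.95 and 3.95-fold outside (comp39138_c0_seq6, comp16515_c0_seq1 and comp32267_c1_seq2).

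Features that the rule did not use also differed from those of the table. The 59 Zhewan-late unigenes had a median length of 912 bp and the 67 Zhongwan-late unigenes of 867 bp, against 1349 bp for all unigenes with the read minimum. In the Zhewan-late set 49 of 59 (83.1%) were the only sequence of their component, and in the Zhongwan-late set 37 of 67 (55.2%), against 42.6% of all. Reads, length and component size go together in an assembly, and their part in these differences was not tested.

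Where a component held several sequences, reads of 1 gene may be spread over them. The Zhewan-late unigenes lay in 57 components, of which 8 held more than 1 sequence. With the reads of each of the 8 summed, 3 kept a 4-fold gap, 4 had a gap of 2 to 4-fold and 1 had a smaller gap in the same direction. Of their 12 other sequences with the read minimum, 11 had the direction of the member in both cultivars. The Zhongwan-late unigenes lay in 54 components, of which 17 held more than 1 sequence. Of these 17 sums, 9 kept a 4-fold gap, 3 had 2 to 4-fold, 3 had a smaller gap in the same direction and 2 lacked the direction of the member. Of the 36 other sequences, 7 had the direction of the member and 9 had the reverse direction, while 7 were higher and 13 lower at 25 DAP in both cultivars. Over all unigenes with the read minimum, 65.7% were higher at 25 DAP in Zhewan 1 and 42.3% in Zhongwan 6. Sequences of a component may also share reads, so these counts describe the components only and are not set against each other. The 2 sums with no opposite change were those of comp35021_c0 and comp40793_c0, each with 15 sequences, in which the member held 1.66% and 1.52% of the reads. In comp40793_c0_seq30, with 0 reads in Zhewan 1 at 25 DAP, 87 at 10 DAP, and in Zhongwan 6 with 186 at 25 DAP, 0 at 10 DAP, the opposite change therefore belongs to a minor sequence of a component that was nearly level.

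The 424 unigenes with reads in a single library were mostly found at 25 DAP. Zhewan 1 held 201 of them at 25 DAP and 25 at 10 DAP, and Zhongwan 6 held 175 at 25 DAP and 23 at 10 DAP. Their reads ranged from 50 to 2662, with medians of 78 to 122 in the 4 libraries. The highest were comp29471_c0_seq2 (1367 bp), with 2662 reads in Zhewan 1 at 25 DAP, and comp40798_c0_seq21 (781 bp), with 1470 reads in Zhongwan 6 at 25 DAP. Their median length was 663 bp. These 424 were all the unigenes of the table with at least 50 reads in 1 library and 0 in the other 3.

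In the readable identifier range 1 of 25 single-library unigenes was listed with a Medicago sequence (4%, 95% Wilson interval 0.710% to 19.5%), against 575 of 910 of all unigenes with the read minimum (63.2%, 60.0% to 66.3%). The unigenes with a 4-fold gap had 6 of 8 (75%, 40.9% to 92.9%). The 25 are among the 910 and unigenes are not independent, so the intervals understate the error and their comparison is no test. The 424 single-library unigenes were also shorter, with a median of 663 bp against 1349 bp for all with the read minimum. The part of length in these shares was not tested. The single match was comp11498_c0_seq2, named as a subunit of the TATA binding protein associated factors, which help RNA polymerase start transcription. It had 81 reads in Zhongwan 6 at 25 DAP. The origin of the sequences with no listed match was not tested.

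**Figure D5:**
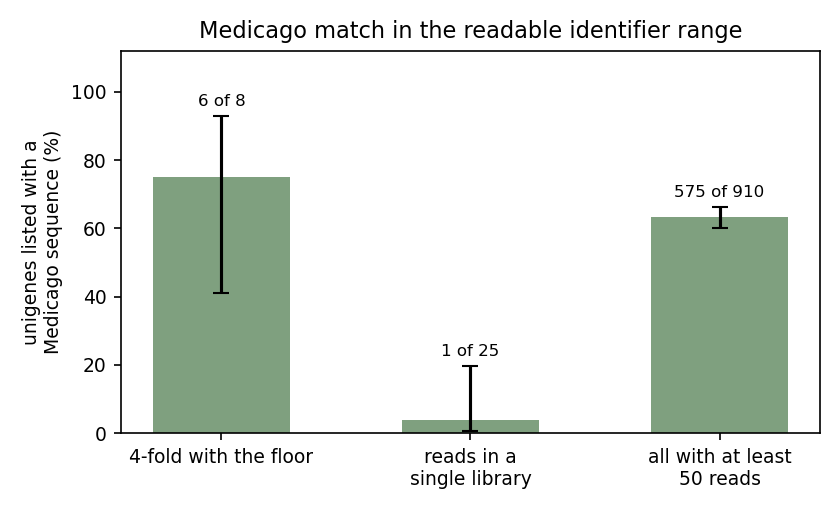
Share of unigenes listed with a Medicago sequence (y axis, %) among those in the identifier range of the readable annotation, for unigenes with a 4-fold gap, unigenes with reads in a single library and all unigenes with at least 50 reads. Bars show the share and the lines on them 95% Wilson intervals, and 1 of 25 single-library unigenes is listed with a match against 575 of 910 of all.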

How the data were processed

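The authors assembled the pooled clean reads of all libraries with Trinity and mapped the reads of each library back to the unigenes with bowtie 0.12.8. They deposited raw read counts per unigene, and RPKM values, in which the deposited counts are scaled by the length of the sequence and by the sum of counts of that library. RPKM recomputed from the counts matched in all entries except 2. The sum of counts over the libraries exceeds the number of clean reads that the study gives, so a read may be counted on several sequences. How alignments were counted is not given in the sources used here. Both kinds of values were used for all 77269 unigenes.

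The rule was applied to the deposited RPKM. Since 0 in 3 libraries satisfies it, a floor of 3 reads was applied, and the 10 widest gaps per direction where both higher libraries reach an RPKM of 1 were added to the named unigenes, both after the data were seen. Members and lists were chosen with earlier results of these data known. With 1 library per group no test was run. Ratios of reads have 95% exact Clopper-Pearson intervals and shares Wilson intervals, both for counting error only. Named unigenes are, per direction, the 10 with the widest gap where both higher libraries reach an RPKM of 10, the 3 with the most reads, every unigene named in the readable annotation (1998 rows, 1121 of them unigenes of the table), those next to the threshold and components with both directions. Of the identifiers 0 match the RefSeq pea gene table, so no sequence is shown. Alternatives changed scaling (median ratios, or TMM from edgeR 4.0.16), read minimum, fold, pseudocount, RPKM minimum and component sums. The code of the rule was run on simulated counts, with changes planted in unigenes with many reads and counting noise only. That run does not bear on members with few reads or with a gap near the threshold. R 4.3.3 ran edgeR, and Python 3.11.15 ran the other steps with pandas 2.3.3, SciPy 1.17.1, matplotlib 3.10.9 and NumPy 2.4.6.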

Additional observations from a re-analysis of the deposited data

Results flagged for a closer look

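The cultivars moved in opposite directions with stage in 59 Zhewan-late and 67 Zhongwan-late unigenes, by the way they were chosen. With 1 library per group the difference between the cultivars was not tested.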

How the results depend on the processing

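The number of unigenes with a 4-fold gap and the read floor depended on the setting, more so in the Zhewan-late set (59) than in the Zhongwan-late set (67). Zhewan-late counts were 22 with median-ratio scaling, 24 with TMM scaling, 123 with no read minimum, 109 with a minimum of 20 reads, 27 with 200 reads, 592 with a fold of 2, 9 with a fold of 8, 29 and 2 with a pseudocount of 0.1 and 1 RPKM, 35 with an RPKM of at least 1 in both higher libraries, and 14 with the gap at the near end of each interval. Zhongwan-late counts moved by over 1.5 times with a fold of 2 (287), a fold of 8 (24), a pseudocount of 1 RPKM (28) and the interval (40). Scaling by median ratios or TMM gave 99 each.

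For the rule without the floor (314 Zhewan-late and 276 Zhongwan-late) the counts in that order were 4536 and 1886 with no read minimum, 713 and 465 with 20 reads, 102 and 111 with 200 reads, and 855 and 497 with a fold of 2. They were 29 and 58 with a pseudocount of 0.1 RPKM, 2 and 28 with 1 RPKM, 35 and 58 with an RPKM of at least 1, and 14 and 40 with the interval. A floor of 10 reads, added after the data were seen, left 43 and 61. Of 54 counts computed, 23 stayed within 1.5 times of the reported value. Among 36 named unigenes the difference between the stage log2 ratios kept its sign under both scalings and with a pseudocount of 1 RPKM. The choice by a 4-fold gap fixed this sign, so that it is no check of the members. The size of the difference moved by more than its counting error in 16 of the 36 under each scaling. With the pseudocount it moved in 33. With component sums the difference moved in 6 and reversed in 1, comp40793_c0_seq30, to 0.34. No paired analysis was possible because each group has 1 library, and for the same reason no replicate could be left out.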

Other observations

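In 2 components single-library unigenes of both sets lay side by side. Component comp25979_c0 held comp25979_c0_seq4 and comp25979_c0_seq9, with 463 and 443 reads in Zhongwan 6 at 10 DAP alone, and comp25979_c0_seq2, with 50 reads in Zhongwan 6 at 25 DAP alone. Its other 2 sequences had reads at 10 DAP in both cultivars, 156 and 153 in Zhewan 1 and 287 and 290 in Zhongwan 6, and 0 at 25 DAP. Component comp37545_c3 held comp37545_c3_seq6, with 58 reads in Zhewan 1 at 25 DAP alone, and comp37545_c3_seq4, with 387 reads in Zhongwan 6 at 25 DAP alone, while comp37545_c3_seq2 of the same component had 86 to 232 reads in all 4 libraries.

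Both sequences of comp22119_c0 were Zhongwan-late unigenes with reads mostly in 1 library. They summed to 8 reads in Zhewan 1 at 25 DAP and 325 at 10 DAP, and to 6438 in Zhongwan 6 at 25 DAP and 58 at 10 DAP.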
